A study of Mus musculus with 2 samples.

Results

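The Sox factors of groups C, D and E are 8 genes, *Sox4*, *Sox11* and *Sox12* of group C, *Sox5*, *Sox6* and *Sox13* of group D, and *Sox8* and *Sox9* of group E. They were taken by name, as every probe set annotated to one of these genes alone, which gave 33 probe sets of 34945 that named 1 gene, or 8 of 18193 genes. A probe set is a set of short probes that together read 1 region near the 3′ end of a transcript. RNA came from superficial zone (SFZ) cells of articular cartilage, prepared from the femur and tibial joint, and from costal chondrocytes (CC), prepared from the ribs, both of ICR mice at postnatal day 4. No genetic change or treatment is given for either, and the cells of both were kept in DMEM with 10% FBS, so the values are of cells in culture. Each cell type was measured on 1 Affymetrix mouse array from 100 ng of total RNA, so no difference below has a replicate check, no test was run, and precision is limited by having 1 array for each. The body site of origin, the zone of the cartilage and the array cannot be told apart between SFZ cells and CC.

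SOX proteins carry an HMG box, a DNA-binding domain that bends the minor groove, and are sorted into groups by its sequence. SOX9, of group E, is required to form cartilage and switches on genes of cartilage matrix, among them *Col2a1* and *Acan*. SOX5 and SOX6, of group D, have no activation domain of their own and dimerize through a coiled coil, and they add to the action of SOX9 on those genes. SOX4, SOX11 and SOX12, of group C, are activators found in many progenitor cells, including those of joints and growing skeletal elements, where SOX4 and SOX11 act redundantly.

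The chondrocyte markers *Col2a1* (collagen II) and *Acan* (aggrecan) were present on both arrays, where SFZ cells gave 8251 and CC gave 9074 for *Col2a1*, with 7772 and 5588 for *Acan*. *Prg4*, encoding lubricin of the joint surface, was at 323 and 73.6. As a background level, the 95th percentile of the signals of 84 chemosensory receptor probe sets (smell, taste and vomeronasal) was taken, which came to 28.2 for SFZ cells and 26.2 for CC. All ratios are SFZ/CC unless said otherwise, and their median log2 value was -0.15 over the 21338 probe sets above background on both arrays. It was 0.03 with the arrays scaled to equal medians and 0.08 after quantile normalization, so some small log2 ratios below are also given relative to this -0.15.

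Of the 8 genes, *Sox4* alone had probe sets past the thresholds, a signal over 100 on the brighter array and a ratio over 2. It was higher in CC on 5 probe sets, while no probe set of any member passed toward SFZ cells. Over all 45037 probe sets, 3.58% were higher in CC and 0.779% in SFZ cells by these thresholds, and over the 25451 above background on at least 1 array the shares were 6.33% and 1.38%. With equal medians these last shares were 4.78% and 2.26%, and after quantile normalization 4.31% and 2.59%. *Sox4* had 5 called probe sets under both scalings too. The 5 called probe sets of 33 belong to 1 gene and share its transcript, so they count as 1 difference and not as 5. By gene, on the brightest probe set, 7.9% of the 12466 genes above background on at least 1 array were higher in CC. Toward SFZ cells 1.72% were. With 8 genes, a count of 1 toward CC is close to those shares. Of the 33 probe sets, 25 were above background on both arrays, 1 on the CC array alone and 7 on neither. Of the 25 above background on both arrays, 20 lay within a ratio of 2 in either direction. That is 80%, against 90.9% of all such probe sets, and the other 5 are the called ones of *Sox4*.

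**Figure D1:**
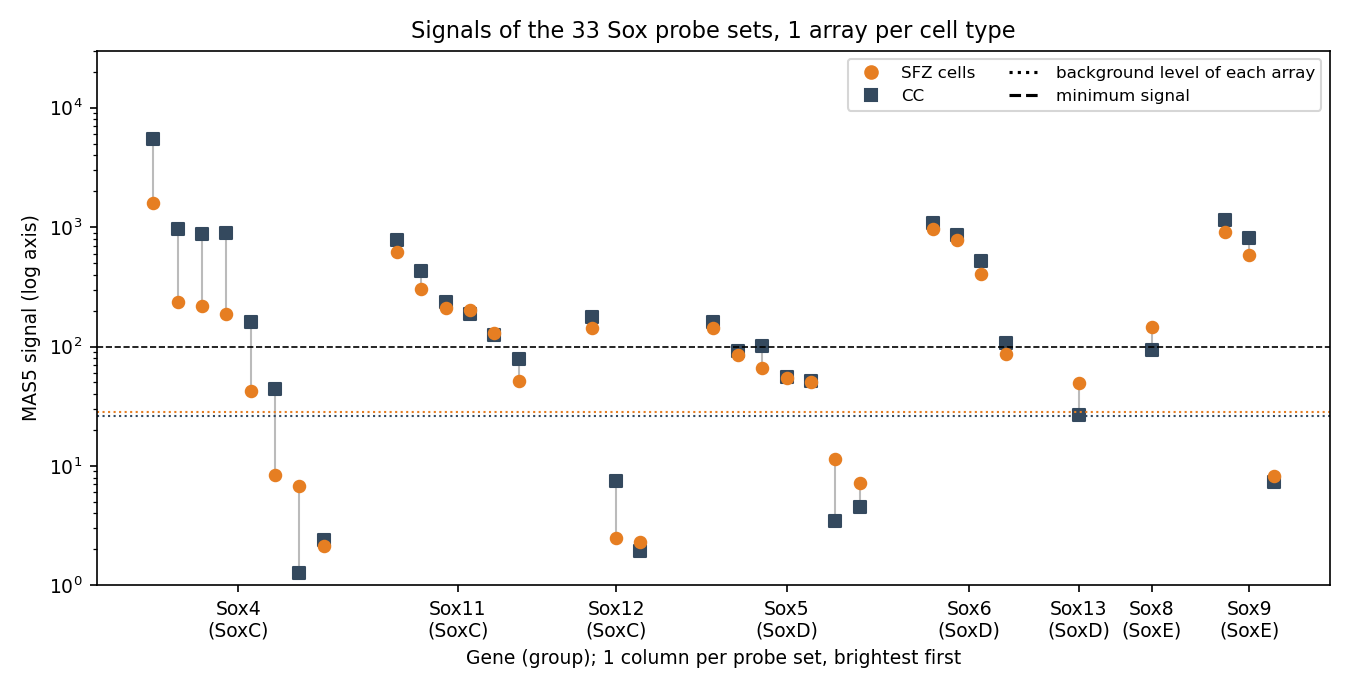
MAS5 signals, on a log axis, of the 33 probe sets of the 8 Sox genes in SFZ cells (circles) and CC (squares), 1 column per probe set and 1 array per cell type. The first 5 probe sets of *Sox4* have CC signals well above their SFZ signals, and the pairs of the other genes above the dotted background levels lie close together.

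The median log2 ratio of group C over its 13 probe sets above background on at least 1 array was -0.62, and over the 7 of *Sox11* and *Sox12* alone it was -0.31. The median over all 25451 such probe sets was -0.19. *Sox4* is an intronless gene active in skeletal, neural, lymphoid and other progenitors. On its brightest probe set, 1433575_at, SFZ cells gave 1589 and CC gave 5467, for a CC/SFZ ratio of 3.44. Its other called probe sets had signals of 234 and 956 on 1419155_a_at, a ratio of 4.08. On 1419156_at the signals were 217 and 884, and on 1419157_at they were 186 and 885. On 1449370_at, the dimmest of the 5, they were 42.2 and 160. The 5 thus gave CC/SFZ ratios from 3.44 to 4.77, with an SD of 0.17 on the log2 scale between probe sets. They share a transcript and are not independent, and of all 8 *Sox4* probe sets 4 come from the same sequence record. Among the probe sets above background on both arrays, from 1.04% to 2.09% had a lower SFZ/CC ratio than these 5.

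The remaining probe sets of *Sox4* were dim. On 1455867_at the SFZ signal was under background and the CC signal was 43.9, so the transcript was at least 1.56-fold higher in CC there. The last pair, 1443778_at and 1458332_x_at, was under background on both arrays and gives no ratio. The direction of *Sox4* held with other scalings of the arrays, where its brightest probe set had a log2 ratio of -1.78 as deposited, -1.59 with equal medians and -1.65 after quantile normalization.

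Markers of other cell types were read on the same arrays. Of the 12466 genes above background, 7.9% were higher in CC and 1.72% in SFZ cells. With equal medians the shares were 6.05% and 2.67%, and after quantile normalization 5.51% and 3.01%. Of 15 skeletal muscle markers, 13 were above background and all 13 were higher in CC. The summed signal of the muscle list was 307 in SFZ cells and 35416 in CC. *Myf5* and *Pax7*, factors of muscle progenitors, were under background on both arrays. All 4 measured adipocyte markers were higher in CC, with sums of 1007 and 10972. The same held for 5 of 6 fibroblast markers, with sums of 6957 and 16236, and for 3 of 5 macrophage and leukocyte markers, with sums of 393 and 1788, although after quantile normalization 1 of these 5, *Lyz2*, passed. Of 7 measured cell cycle genes 6 were higher in CC, with sums of 3088 and 7305, whereas the 6 chondrocyte markers summed to 56236 in SFZ cells and 45243 in CC. Of 4 endothelial markers above background 0 passed, and all 4 were under background in SFZ cells. The 5 measured endothelial markers summed to 62.5 in SFZ cells and 156 in CC. Of 2 Schwann cell and neural crest markers above background 1 was higher in CC, *Erbb3*, at 32.4 and 247. The other, *Egr2*, was under background in SFZ cells and at 89.0 in CC. *Egr2* was at least 3.16-fold higher in CC, at a signal too low to pass. The 3 measured markers of this list summed to 61.0 and 359. Of 6 superficial zone markers *Prg4* passed toward SFZ cells, and *Vcam1*, at 35.7 and 354, and *Thbs4*, at 108 and 388, toward CC, and after quantile normalization *Erg* passed toward SFZ cells as well. No marker was listed at 0. The part of these cells, or of dividing cells, in the *Sox4* signal was not tested, and in bulk RNA more cells that make a transcript cannot be told apart from more transcript per cell.

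*Sox11*, whose protein is reported to regulate the joint growth factor gene *Gdf5*, was above background on both arrays on each of its 6 probe sets. On 1436790_a_at SFZ cells gave 619 and CC gave 774. The dimmer 1453125_at was at 302 and 433, and 1429372_at was at 212 and 236. On 1429051_s_at the order turned, with 204 in SFZ cells and 189 in CC, and on 1453002_at the signals were 130 and 125. The dimmest, 1431225_at, was at 51.1 and 78.6. The log2 ratios ran from -0.62 to 0.11, with 4 under 0 and 2 over it and an SD of 0.30 between probe sets. Their median was -0.24, beside -0.15 for all probe sets, and the 6 did not share a direction. The spread between probe sets does not measure the error of the difference between SFZ cells and CC.

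*Sox12*, the weakest activator of group C, gave 142 in SFZ cells and 176 in CC on 1455562_at, a log2 ratio of -0.31, or -0.16 relative to the median of all probe sets. Its other probe sets, 1439754_at and 1456882_at, were under background on both arrays. Across the group, where both signals exceeded background, the ranges of *Sox4* and its relatives did not overlap. The lowest such *Sox4* CC/SFZ ratio, 3.44, was above the highest of *Sox11*, 1.54, and above the 1.24 of *Sox12*. This compares 5 ratios from the *Sox4* transcript with a single ratio for *Sox12*. It leaves out 1455867_at of *Sox4*, whose CC/SFZ ratio is known only to be at least 1.56. How often related genes elsewhere on the arrays differ in this way was not tested.

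The stretches just upstream of the group C genes are shown because *Sox4* differed between the arrays and *Sox11* and *Sox12* did not pass. They are the 250 bases before the RefSeq start on the minus strand of GRCm38.p6, chr13:28953700-28953949 for *Sox4*, chr12:27342719-27342968 for *Sox11* and chr2:152398047-152398296 for *Sox12*, with the letters CCAAT on either strand (ATTGG on the strand shown) in capitals.
Sox4: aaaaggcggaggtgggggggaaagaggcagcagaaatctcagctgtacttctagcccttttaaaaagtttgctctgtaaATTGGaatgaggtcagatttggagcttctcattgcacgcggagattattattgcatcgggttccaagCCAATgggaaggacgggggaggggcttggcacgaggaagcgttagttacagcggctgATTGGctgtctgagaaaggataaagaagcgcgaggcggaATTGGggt
Sox11: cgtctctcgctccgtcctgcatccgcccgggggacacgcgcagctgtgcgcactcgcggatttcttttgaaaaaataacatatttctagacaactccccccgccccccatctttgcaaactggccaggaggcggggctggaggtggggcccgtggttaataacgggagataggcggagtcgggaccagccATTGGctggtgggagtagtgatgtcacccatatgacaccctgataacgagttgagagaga
Sox12: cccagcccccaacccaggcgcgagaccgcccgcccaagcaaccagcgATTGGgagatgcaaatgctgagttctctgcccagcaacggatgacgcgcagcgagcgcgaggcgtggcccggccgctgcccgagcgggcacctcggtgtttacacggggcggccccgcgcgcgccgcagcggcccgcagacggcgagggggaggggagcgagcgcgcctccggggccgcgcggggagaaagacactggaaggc

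*Sox4* held CCAAT 4 times, beginning 171, 104, 47 and 8 bases before the start, and *Sox11* and *Sox12* held it 1 time each. Over 32851 promoter windows of the same length, some of them alternative starts of 1 gene, 33.8% held CCAAT on either strand and 0.84% held it at least 4 times. The cutoff of 4 equals the *Sox4* count, so this share describes that window and is no test of it. Base composition was not allowed for. None of the 3 windows held TATAAA, which 12.4% of all windows did, or the SOX core letters ACAAT, which 27.7% did. The GC box letters GGGCGG occurred 2 times for *Sox11*, 3 times for *Sox12* and not for *Sox4*, against 32.7% of windows with at least 1. The GC content was 50.8% for *Sox4*, 58.0% for *Sox11* and 74.4% for *Sox12*. These matches describe the letters and were not tied to the signals. RefSeq windows were found for 7 of the 8 members, without *Sox9*.

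**Figure D2:**
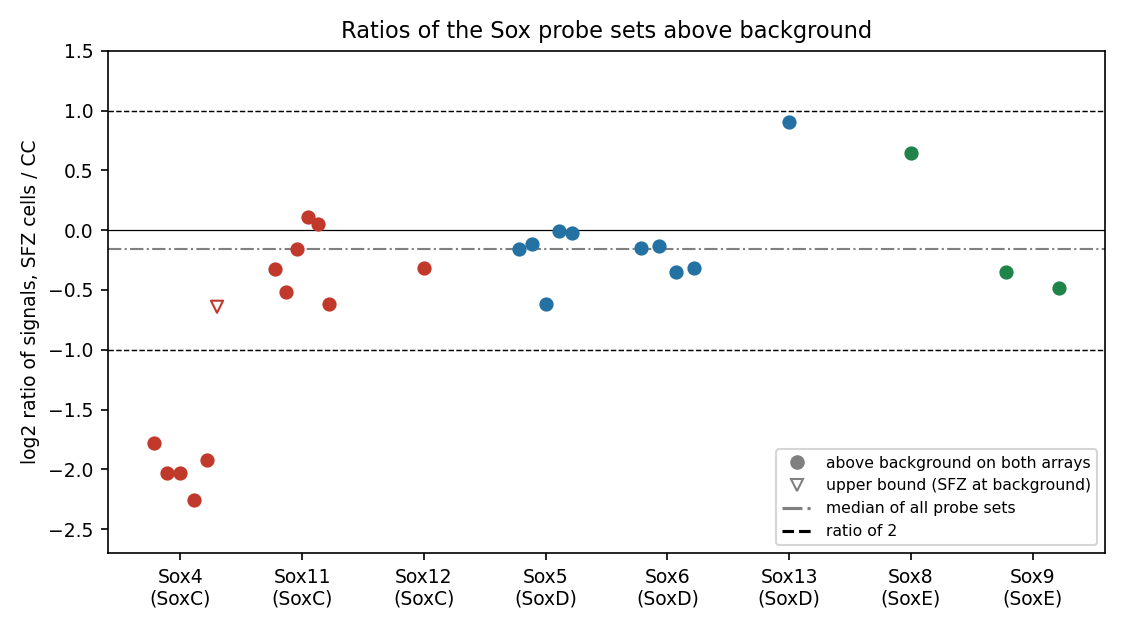
SFZ/CC signal ratios on a log2 axis for the Sox probe sets above background, coloured by group, with 1 array per cell type. The 5 filled points of *Sox4* lie from -2.25 to -1.78, below the dashed line at a ratio of 2, and all filled points of the other genes lie between the dashed lines; the open triangle of *Sox4* is an upper bound.

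The genes of group D had a median log2 ratio of -0.14 over 10 probe sets above background, close to the -0.19 of all probe sets above background, and it turned to 0.05 with equal medians and 0.09 after quantile normalization. None of the 12 group D probe sets passed the thresholds. *Sox5*, the HMG box protein that pairs with SOX6 on cartilage genes, gave 144 in SFZ cells and 161 in CC on 1455535_at. On 1423500_a_at it was at 84.4 and 91.2, and on 1432189_a_at at 65.6 and 101. The dimmer 1452511_at and 1440827_x_at were nearly equal on the arrays, at 55.0 and 55.3 and at 50.1 and 51.0. All 5 ratios were under 1 as deposited, and on the brightest probe set the log2 ratio of -0.16, which is -0.0053 relative to the median of all probe sets, turned to 0.03 with equal medians and 0.13 after quantile normalization. The other probe sets, 1432190_at and 1459261_at, were under background on both arrays.

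*Sox6* was above background on both arrays on each of its 4 probe sets. SFZ cells gave 968 and CC gave 1073 on 1447655_x_at, with 778 and 855 on 1427677_a_at. The signals were 407 and 519 on 1434918_at, and 86.9 and 108 on 1426018_a_at. The 4 log2 ratios lay from -0.35 to -0.14, with an SD of 0.11 between probe sets, and that of the brightest, 0.0062 relative to the median of all probe sets, turned to 0.04 with equal medians and 0.02 after quantile normalization. *Sox6* is also known from skeletal muscle fibres, whose markers were given above, and its SFZ/CC ratios lay from 0.78 to 0.91.

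*Sox13*, the remaining gene of group D and better known from lymphoid and neural cells, had 1 probe set, 1450191_a_at. SFZ cells gave 49.6 and CC 26.6, the latter just above the background level of 26.2. The SFZ/CC ratio of 1.87 was 2.13 with equal medians and 2.19 after quantile normalization, and the log2 ratio went from 0.90 to 0.33 with 64 added to both signals. Of the probe sets above background on both arrays, 97.5% had a lower ratio. The gene rests on this dim probe set alone.

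The genes of group E were split. For *Sox9*, SFZ cells gave 902 and CC gave 1150 on 1451538_at, with 585 and 816 on 1424950_at, while 1433889_at was under background on both arrays. Of these 3 probe sets, 2 come from the same sequence record. The log2 ratios of 1451538_at and 1424950_at were -0.35 and -0.48, or -0.20 and -0.33 relative to the median of all probe sets. That of the brightest was -0.16 with equal medians and -0.18 after quantile normalization. Both measured probe sets were thus lower in SFZ cells under each scaling of the arrays that was tried, by less than a ratio of 2. Of the probe sets above background on both arrays, 31.9% and 22.7% had a lower SFZ/CC ratio than these, so they lie within the bulk. *Sox8*, which can substitute in part for SOX9 in other tissues and is also found in muscle satellite cells, ran the other way on its only probe set, 1435438_at, at 145 in SFZ cells and 92.7 in CC. Its ratio was 1.56 as deposited, 1.78 with equal medians and 1.93 after quantile normalization, and 94.8% of probe sets above background on both arrays had a lower ratio.

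**Figure D3:**
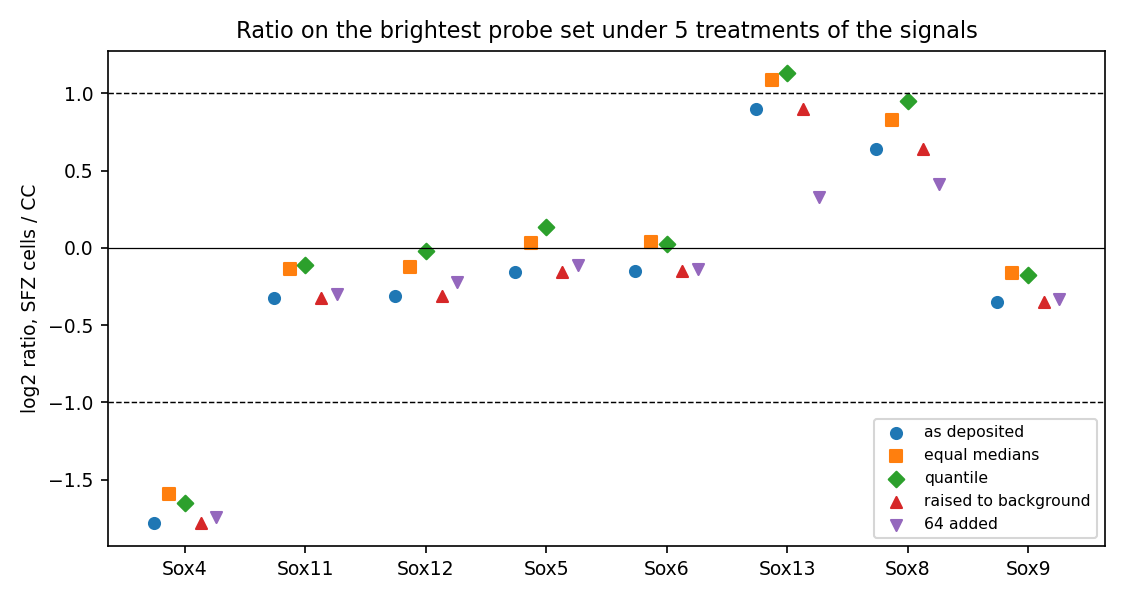
SFZ/CC signal ratio, as log2, on the brightest probe set of each of the 8 genes, as deposited and under 4 other treatments of the signals, with dashed lines at a ratio of 2. *Sox4* stays between -1.78 and -1.59, *Sox5* and *Sox6* cross 0 with equal medians and after quantile normalization, and *Sox13* goes from 0.33 to 1.13.

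Of 18 cartilage genes with known control by SOX9, SOX5 and SOX6, each above background on both arrays, 3 passed toward SFZ cells and 0 toward CC. Over the 12466 genes above background the shares were 1.72% toward SFZ cells and 7.9% toward CC. Both depend on the scaling. With equal medians 5 of the 18 passed toward SFZ cells, with *Col9a2* and *Col11a2* added, and the shares over all genes were 2.67% and 6.05%. After quantile normalization 4 passed, with *Col9a2* added, and the shares were 3.01% and 5.51%. *Matn1*, encoding the cartilage matrix protein matrilin-1, reached 9989 on the SFZ array against 2692 for CC. *Snorc*, a proteoglycan of chondrocytes, was at 3818 and 1754. *Col9a3*, a chain of collagen IX, was at 7799 and 3668, and its second bright probe set had a ratio of 1.78. *Col2a1* had a ratio of 0.91 and *Acan* of 1.39. The highest signals on the arrays were 13754 for SFZ cells and 13608 for CC, and the brightest of the 18 genes lay near them. Whether ratios are compressed at such signals was not tested. These 18 genes had a median log2 ratio of 0.34, and all genes one of -0.18.

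Among 13 measured cofactors and modifiers of SOX9, 12 were above background, of which 2 passed toward CC and 0 toward SFZ cells, where 7.9% and 1.72% of all genes did. *Arid5b*, which works with SOX9 on chondrocyte genes through a histone demethylase, had an SFZ signal of 181 and a CC signal of 654. Another of its probe sets had a CC/SFZ ratio of 3.80, and one more, at 61.9 and 64.4, had one of 1.04. *Prkaca*, the catalytic subunit of the kinase that phosphorylates SOX9, was at 490 and 1138. The median log2 ratio of the 12 was -0.42, beside -0.18 for all genes. After quantile normalization these medians were -0.15 and 0.02. The acetyltransferase genes *Ep300* and *Crebbp*, named here after their values were seen, had SFZ/CC ratios of 0.93 and 0.98.

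Of 11 measured targets and partners of the SOXC proteins, including genes of canonical Wnt signaling, 8 were above background, of which 2 passed toward CC and 0 toward SFZ cells, again beside 7.9% and 1.72% of all genes. *Tead2*, a known target of SOX4 and SOX11 that encodes a TEA domain factor, had an SFZ signal of 38.5 and a CC signal of 173. *Tcf7l2*, which encodes a partner of β-catenin, was at 130 and 421, and a further probe set of it had a CC/SFZ ratio of 2.30. *Lef1*, of the same TCF/LEF family and picked for its values, gave 63.2 and 28.7, an SFZ/CC ratio of 2.21 at a signal too low to pass. *Gdf5*, the joint growth factor that SOX11 is reported to regulate, was at 93.1 and 74.2 on its only probe set. *Tubb3*, a target of SOX4 and SOX11 in neurons named here after its values were seen, was under background on both arrays, as were *Pou3f1* and *Pou3f2*. The median log2 ratio of the 8, with signals raised to the background level, was -0.72, and that of all genes was -0.18. The part of other cell types in these values was not tested.

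**Figure D4:**
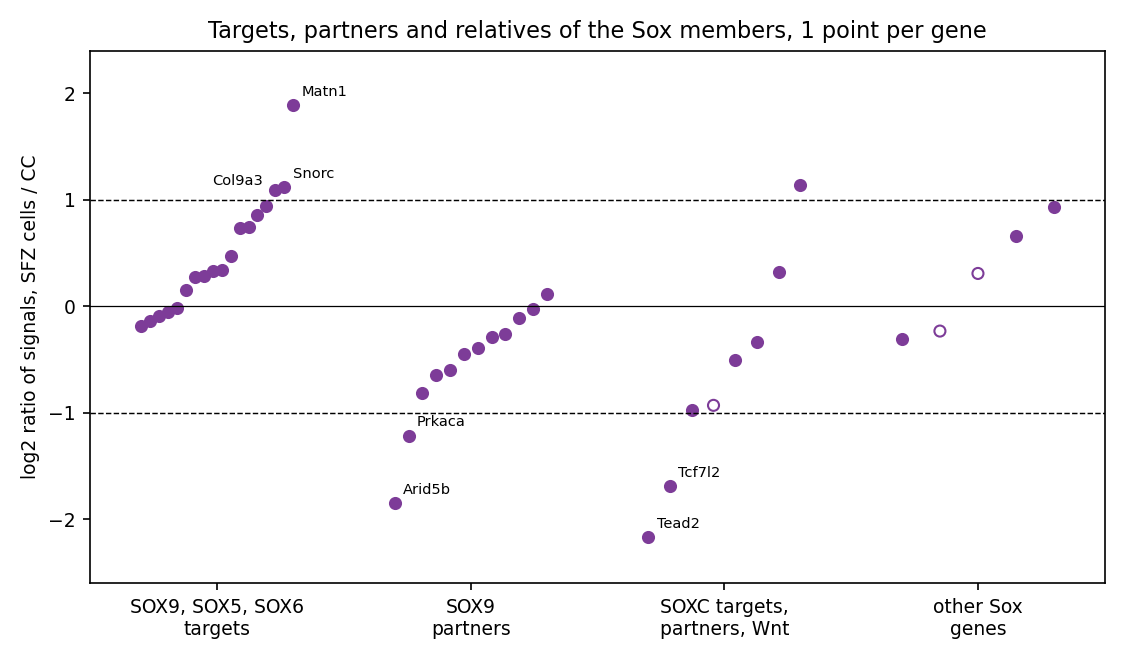
SFZ/CC signal ratios, as log2, of genes above background on at least 1 array, 1 point per gene on its brightest probe set, with signals raised to the background level open points for values that are bounds and dashed lines at a ratio of 2. The named genes passed the thresholds; the median was 0.34 for the 18 targets of SOX9, SOX5 and SOX6, -0.42 for the 12 partners of SOX9 and -0.72 for the 8 SOXC genes.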

How the data were processed

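SFZ cells and CC were each hybridised to a single Affymetrix mouse genome array. The values used are MAS5 signals as the authors deposited them, a linear intensity for every probe set. MAS5 is named in the submitters' processing notes, with its version and scaling target not given in the sources used here. Detection calls were not used. The scaling decides where a ratio of 1 lies, so ratios near 1 depend on it.

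The 64 control probe sets were left out. Genes came from the platform annotation, where 932 probe sets had several symbols and 9160 were unnamed here. All 8 Sox symbols matched RefSeq (GRCm38.p6) through their Entrez identifiers. Probe sets are not placed on the genome, since no build is named for the array.

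A probe set was called where its brighter signal was over 100 and the ratio over 2. The study's legend applies these values to genes of SFZ cells only, and their use toward CC is an extension made here. For a dimmer signal that did not exceed background, the fold is a bound against that level. Lists were read with 1 probe set per gene, the brightest by mean log2 signal. All members were named on every probe set, and of each list of targets and partners up to 4 called genes with the largest ratios, plus *Gdf5*, *Prg4*, *Col2a1* and *Acan*. The members and lists were chosen with earlier results of these data known. Some genes of the lists were not analysed here.

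Alternatives were equal medians, quantile normalization, a floor at the background level, an offset of 64 on both signals, probe sets without the suffixes _s_at and _x_at, other thresholds and other summaries per gene. Promoter sequences are RefSeq's. Python 3.11.15, numpy 2.4.6, pandas 2.3.3 and matplotlib 3.10.9 were used.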

Additional observations from a re-analysis of the deposited data

How the results depend on the processing

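The count of 5 Sox probe sets higher in CC was 4 with a signal over 200 and 6 with a ratio over 1.5, where 1 of *Sox5* came in at a CC signal of 101, and it was 5 under every other alternative tried. With a ratio over 1.5, 1 probe set was higher in SFZ cells, that of *Sox8*, against 0 with the ratio over 2. The median log2 ratio of group C ran from -1.20 without the probe sets that can bind several transcripts to -0.32 after quantile normalization. That of group D ran from -0.15 to 0.09 and was over 0 with equal medians and after quantile normalization. That of group E ran from -0.35 to 0.15 and was over 0 only with 1 value per gene, which is the middle of *Sox8* and *Sox9*. Counts of the other lists under both scalings, chosen after seeing the data, stand beside them where they moved by over 1.5 times. On their brightest probe sets *Sox5* and *Sox6* turned from under 0 to over 0 with equal medians and after quantile normalization. The 48 log2 ratios of single genes under the alternatives each moved by less than a factor of 1.5 in the ratio. No paired analysis was possible because each cell type has 1 array, and for the same reason no array could be left out. Ratios with a signal near background, as for *Sox13*, are the least precise.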

Other observations

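Of the 12 Sox genes outside groups C and D and the pair *Sox8* and *Sox9*, 5 were above background on at least 1 array. As deposited 0 of these 5 passed the thresholds, where 1.72% of all genes above background passed toward SFZ cells and 7.9% toward CC. With so few genes the count of 0 is close to those shares. *Sox7*, a group F gene known from endothelial cells, is named for its values. SFZ cells gave 235 and CC gave 123, for a ratio of 1.91. Its log2 ratio of 0.93 was 1.12 with equal medians and 1.20 after quantile normalization, and the gene passed the thresholds under both. Toward SFZ cells, 2.67% and 3.01% of all genes above background passed under these 2 scalings. The other probe set of *Sox7* was under background on both arrays. *Sox10*, the remaining gene of group E and a marker of Schwann cells and neural crest, was under background on both arrays on each of its 3 probe sets, as were the group F gene *Sox18* and the stem cell gene *Sox2* on the only probe set of each. *Sox17* was at 33.1 in CC and under background in SFZ cells.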
